A study of Mus musculus with 9 samples.

Results

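The carboxylesterases of mouse liver were followed as 10 genes, Ces1b, Ces1c, Ces1d, Ces1e, Ces1f, Ces1g, Ces2a, Ces2e, Ces3a and Ces3b, chosen by gene name from the gene table. Of the 10, 9 had a row of their own name, and these names covered 12 of the 52151 entries, 9 of which held a known transcript. Ces3a had no row of its own: its known transcripts were merged with those of Ces3b into an entry of 23 transcripts that carries the name Ces3b, here called the merged Ces3 entry. The other 3 rows, named Ces1g, Ces2a and Ces3b, held assembled transcripts only and stood outside the tests.

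Liver RNA was sequenced from 3 pair-fed (PF) libraries, 3 alcohol-fed (AF) libraries and 3 AF libraries of mice that also received MNA. PF mice drank an isocaloric control liquid diet, and AF mice drank the Lieber-DeCarli diet with alcohol, for 5 weeks in each case. MNA, which the labels do not spell out, was injected into the peritoneum at 50 mg/kg alongside the alcohol diet, without a vehicle group among the samples used here. The labels give an age of 8 weeks throughout, and the strain as C57BL/6 in PF and AF but as C57BL/7, C57BL/8 and C57BL/9 in MNA replicates 1, 2 and 3, a run of consecutive numbers that may be an entry error, so the strain of the MNA libraries is uncertain. The methods describe male C57BL/6J mice for the PF and AF groups and do not describe the MNA group. Libraries carry no stated batch, and the labels do not say whether each came from a separate mouse, so p-values measure the spread between these libraries.

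Carboxylesterases are serine hydrolases that cut the ester bonds of drugs, other foreign compounds and lipids. In liver, most of them sit inside the endoplasmic reticulum of hepatocytes, held there by a retrieval signal at the end of the protein, while others are secreted into plasma. Several act on triacylglycerol, and liver is among the tissues richest in them. In mice the family has expanded into gene clusters whose members are close relatives of each other.

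The members lie in a pair of clusters on chromosome 8 (GRCm38, GENCODE M21 coordinates). The Ces1 genes are on the minus strand, from Ces1b at chr8:93056728-93080017 through Ces1c, Ces1d, Ces1e and Ces1f to Ces1g at chr8:93302369-93337308. The Ces2 and Ces3 genes are on the plus strand, with Ces2a at chr8:104734003-104741634, Ces2e at chr8:104926260-104934672, Ces3a at chr8:105048601-105058413 and Ces3b at chr8:105083753-105093929. All 10 are annotated as protein-coding. The build of the deposited tables is not named, but 7708 of 7841 known lncRNA transcripts found in GENCODE M21 had the same start and end there.

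The ends of the coding sequences are shown because they separate the members with the retrieval signal, in the form given here, from the rest. They also show how alike Ces3a and Ces3b are. The last 8 codons, stop codon included, of 1 GENCODE M21 transcript of each gene are given from 5′ to 3′. Capitals mark the 4 codons of the signal (histidine, any residue, glutamate, leucine), where they come directly before the stop codon:
Ces1b: actgagcacagagaacacaaatga
Ces1c: actgaacacacagaacacaaatga
Ces1d: cacagggaaCATGTTGAGCTCtga
Ces1e: ccgacagaaCACACTGAGCTGtga
Ces1f: cagccatacCACAATGAGCTGtga
Ces1g: catagggaaCATGTTGAACTGtga
Ces2a: caggacaagCATGCAGAGCTGtag
Ces2e: caggagaggCACAAAGAGTTGtag
Ces3a: aggaaagttccagaggagctctga
Ces3b: aggaaagttccagaggagctctga
The signal in this form was found in 6 of the 10 members, and other forms of a retrieval signal were not searched for. Ces1b and Ces1c, which lack it, share their last 4 codons, and the ends of Ces3a and Ces3b were identical. Over the whole coding sequence Ces3a and Ces3b were 95.3% identical and Ces1b and Ces1c 91.2%. Windows of 100 bases identical to another Ces transcript made up 9.09% of Ces3a, 7.68% of Ces3b, 1.29% of Ces1b and 1.39% of Ces1c, and 0 of the other 6 members, so the levels of Ces3a and Ces3b would be the least certain to separate.

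The level of a gene is given in FPKM, a count of fragments corrected for transcript length and library size, as deposited. In the lncRNA table of the same libraries a level of 1 FPKM was a mean coverage of 5.84 to 8.30 reads per base. The hepatocyte markers Alb, Apoa1, Ttr, Serpina1a and Cps1 summed to 16106 to 21310 FPKM in PF, 14309 to 21401 in AF and 19275 to 21539 in AF with MNA, led by Alb in each library, and 0 of the 5 reached an unadjusted p under 0.05 in limma in either comparison. Adipocyte markers were at or near 0, at 0.00 to 0.10 FPKM in sum, and lymphocyte and neutrophil markers at 0.53 to 1.65. Kupffer cell and macrophage markers summed to 44.2 to 82.1 FPKM, and 0 of the 5 tested reached an unadjusted p under 0.05 in limma in either comparison. For AF against PF, 2 of 6 stellate cell markers were higher and 2 lower, 1 of 6 endothelial and 1 of 2 tested cholangiocyte markers were higher, and 2 of 2 tested pancreas and gut markers were lower (unadjusted p under 0.05 in limma, reached by 11.7% of all entries). Their sums were 29.5 to 30.6 FPKM in PF and 25.8 to 36.0 in AF for stellate cells, 21.9 to 28.7 and 28.6 to 41.0 for endothelial cells, and 3.29 to 4.36 and 4.87 to 9.13 for cholangiocytes. Pancreas and gut markers summed to 20.1 to 33.7 FPKM in PF, 9.40 to 11.9 in AF and 12.9 to 20.4 in AF with MNA, almost all of it from Fabp2 and Cela1, while the pancreatic Ctrb1 and Cpa1 were at 0.00 to 0.28. With MNA against AF, 1 of 2 tested pancreas and gut markers was higher and none of the other tested markers reached that p in limma, against 5.22% of all entries. The part of these markers in the carboxylesterase levels was not tested. AF replicate 3 and AF with MNA replicate 1 stood apart in the number of entries above 0, 33289 and 33292 against 27624 to 29504 in the other 7 libraries, and in the summed FPKM of assembled transcripts inside introns, 9433 and 8934 against 2477 to 4937. In whole liver, fewer cells of a type and less RNA per cell cannot be told apart.

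Comparing AF with PF addressed which carboxylesterases differ under the alcohol diet. Ces2a and Ces1g were upregulated, at 2.45 and 2.17 times the PF mean, and the merged Ces3 entry was downregulated to 0.418 times the PF mean. The other 6 entries did not pass the threshold, an unadjusted p under 0.05 with a log2 FC beyond 1 in either direction. Here log2 FC is the ratio of the mean FPKM of the groups, as log2. The methods state these cut-offs for lncRNAs tested with Ballgown, without saying whether p was adjusted, and here they were applied to gene entries. The 3 of 9 that passed stood against 4.30% of the 12268 entries tested with limma on log2(FPKM + 1). By direction, 2 of 9 were higher against 1.95% of all entries, and 1 of 9 was lower against 2.35%. After Benjamini-Hochberg adjustment over all entries 1 of 9 passed, the merged Ces3 entry, against 0.326% of all entries. PF and AF libraries did not overlap for 4 of 9 members, against 18.3% of all entries, and the median log2 FC was 0.05 over the members and -0.03 over all entries.

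Comparing AF with MNA with AF addressed what differed when MNA was given on top of the alcohol diet. None of the 9 entries passed the same threshold in limma, against 1.98% of 12214 tested entries, and 0 passed after adjustment, against 0.0491%. An unadjusted p under 0.05 was reached by Ces1d alone, 1 of 9 against 5.22% of all entries, while in the comparison of AF with PF it had been reached by 4 of 9 against 11.7%. The MNA and AF libraries did not overlap for Ces1d and Ces2e, 2 of 9 against 10.1% of all entries. The median log2 FC was 0.27 over the members and 0.01 over all entries. The AF libraries serve in both comparisons, so the 2 sets of differences are not independent. AF with MNA was not tested against PF, and no share of all entries without overlap was worked out for that pair. Statements below that MNA and PF libraries did not overlap therefore describe the values only.

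**Figure D1:**
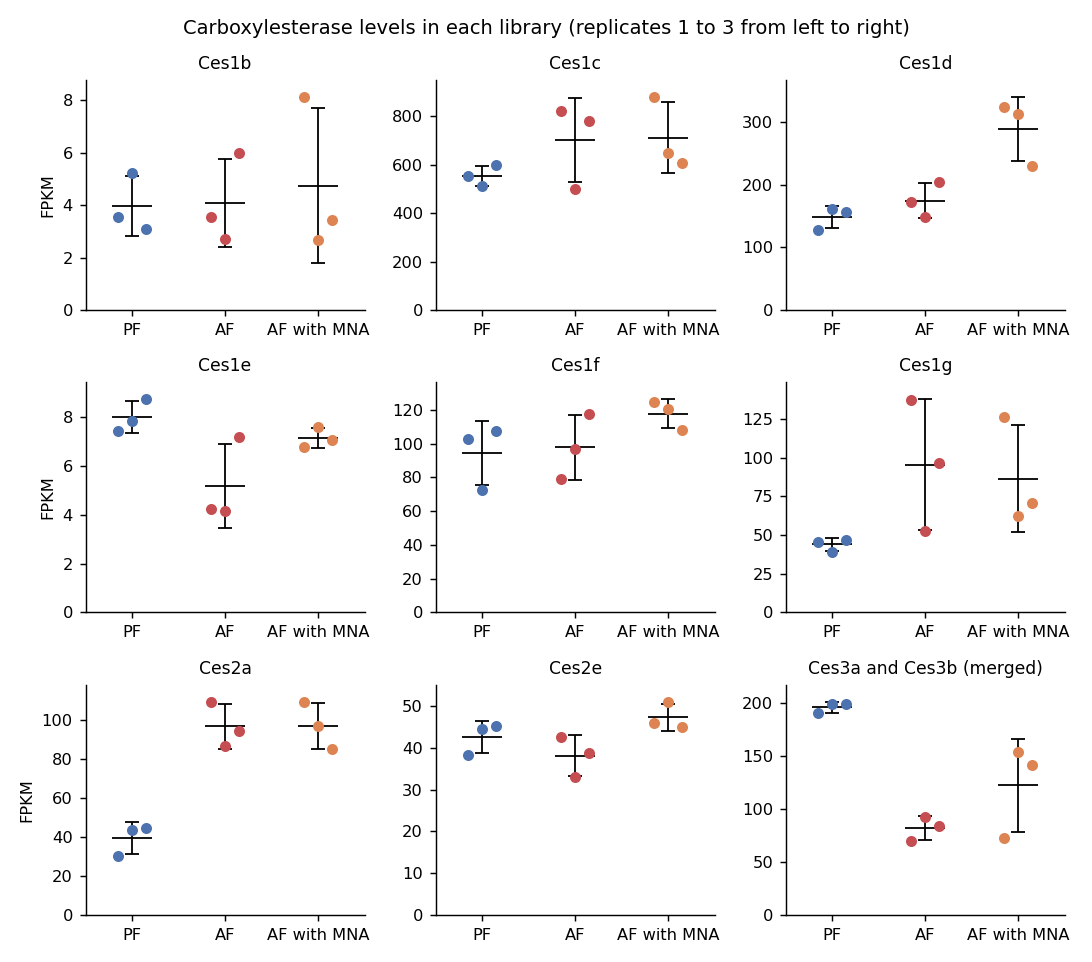
FPKM (vertical axes, each from 0) of the 9 carboxylesterase entries in the 3 PF, 3 AF and 3 AF with MNA libraries; each point is a library, the long bar the group mean and the whiskers 1 SD. Ces2a sits between 86.41 and 109.34 FPKM in AF against 30.00 to 44.77 in PF, the merged Ces3 entry sits between 69.47 and 92.30 against 189.82 to 199.00, and Ces1d is highest in AF with MNA.

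Ces1c, the secreted carboxylesterase of mouse plasma, was the most abundant member in each of the 9 libraries. It stood at 551.71, 512.80 and 596.84 FPKM in PF replicates 1, 2 and 3, at 819.44, 500.54 and 781.04 in AF, then at 879.64, 647.26 and 605.91 in AF with MNA. AF replicates 1 and 3 lay above the PF libraries and AF replicate 2 below them, so the groups overlapped. The log2 FC of AF against PF was 0.34 (SE of limma's coefficient 0.23, unadjusted p = 0.227), and without AF replicate 2 it was 0.53 with an unadjusted p of 0.0156 in limma. Against AF, the group with MNA differed by a log2 FC of 0.02 (SE 0.26). Each MNA library lay above each PF library, the closest by a narrow margin. The mean of Ces1c over the 9 libraries, 655 FPKM, ranked 46th among the entries used.

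Ces1b, the closest relative of Ces1c in coding sequence, had the lowest mean in each group, though it exceeded Ces1e in AF with MNA replicate 1. Its FPKM was 3.54, 5.24 and 3.08 in PF, 3.55, 2.71 and 5.97 in AF, then 8.13, 2.67 and 3.43 in AF with MNA. The groups overlapped, and the highest values lay in AF replicate 3 and AF with MNA replicate 1, the libraries with the most intron signal, whose part in these values was not tested. The log2 FC was 0.04 for AF against PF (SE 0.27) and 0.22 for MNA on top of AF (SE 0.39).

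Ces1d, known as triacylglycerol hydrolase for its part in releasing stored fat for very-low-density lipoprotein, stood at 128.16, 161.03 and 156.59 FPKM in PF and at 171.69, 148.37 and 203.47 in AF. In AF with MNA it reached 323.22, 312.86 and 229.21, and each of these lay above each AF and PF library. The log2 FC was 0.23 for AF against PF (SE 0.18, unadjusted p = 0.249 in limma). For AF with MNA against AF it was 0.72 (SE 0.20, unadjusted p = 0.0108, adjusted p = 0.940 in limma), so that the call did not survive adjustment over all entries. Its unadjusted p stayed between 0.00487 and 0.0403 under each of 16 other settings, while the adjusted p ranged from 0.558 to 1.00. The group mean with MNA, 288 FPKM, was 1.94 times that of PF.

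Ces1g, a lipid and drug ester hydrolase of liver, stood at 45.65, 39.28 and 46.88 FPKM in PF and at 137.06, 52.38 and 96.79 in AF. Each AF library lay above each PF library, but the AF libraries were spread from 52.38 to 137.06, and AF replicate 2 was only a little above PF. The log2 FC was 1.12 (SE 0.34, unadjusted p = 0.0229, adjusted p = 0.355 in limma). Limma's coefficient on log2(FPKM + 1), to which the SE and p belong, was 1.0006, barely past the fold threshold of 1. Ces1g no longer reached an unadjusted p under 0.05 in limma without PF replicate 2 (log2 FC 1.04, unadjusted p = 0.0654), without AF replicate 1 (0.76, unadjusted p = 0.0565) or without AF replicate 3 (1.11, unadjusted p = 0.0670). AF with MNA stood at 126.27, 62.39 and 70.89, all above PF and within the AF range, with a log2 FC against AF of -0.14 (SE 0.41). Over the 9 libraries the levels of Ces1g and Ces1c on the log2 scale went together, with a Pearson r of 0.94 as a description across libraries that share diets. Ces1c was 12.1 to 13.1 times as abundant as Ces1g in PF and 5.98 to 9.56 times in AF.

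Ces1e, known as egasyn, the partner that keeps beta-glucuronidase in the endoplasmic reticulum, stood at 7.43, 7.83 and 8.72 FPKM in PF and at 4.22, 4.15 and 7.17 in AF. The AF libraries all lay below PF, AF replicate 3 by a small margin. The log2 FC was -0.63 (SE 0.20, unadjusted p = 0.0284, adjusted p = 0.370 in limma), short of the fold threshold. Without AF replicate 3 it was -0.93 (unadjusted p = 0.00120 in limma), while the unadjusted p was 0.0608 to 0.0908 without PF replicate 2 or 3 or AF replicate 1 or 2, and 0.0658 in the linear model with a library-size covariate. AF with MNA, at 6.77, 7.57 and 7.07, overlapped both other groups, with a log2 FC against AF of 0.46 (SE 0.20, unadjusted p = 0.0737 in limma). That difference became 0.77 with an unadjusted p of 0.00233 in limma without AF replicate 3, and with all 9 libraries in the fit its unadjusted p was 0.0423.

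Ces1f is another hydrolase of lipid and drug esters. Its FPKM was 102.93, 72.61 and 107.63 in PF, 78.82, 96.81 and 117.56 in AF, then 124.59, 120.34 and 107.93 in AF with MNA. PF and AF overlapped almost fully, with a log2 FC of 0.05 (SE 0.22), and AF with MNA overlapped with AF, with a log2 FC against AF of 0.27 (SE 0.18, unadjusted p = 0.167 in limma). Without AF replicate 3 that log2 FC was 0.42 (unadjusted p = 0.0496, adjusted p = 0.669 in limma). Each MNA library lay above each PF library, the closest by a narrow margin.

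Ces2a, which hydrolyses diacylglycerol and triacylglycerol in liver, stood at 30.00, 43.47 and 44.77 FPKM in PF. It stood at 109.34, 86.41 and 94.31 in AF and at 108.99, 96.83 and 85.08 in AF with MNA. The alcohol-fed libraries of both kinds lay above each PF library. The log2 FC of AF against PF was 1.29 (SE 0.20, unadjusted p = 0.000422, adjusted p = 0.0819 in limma), the 63rd lowest p of the 12268 entries. The unadjusted p was under 0.05 under all 16 other settings, while the adjusted p ranged from 0.0264 to 0.329 and was under 0.05 in 1 of them, the fit with all 9 libraries. Against AF the group with MNA differed by a log2 FC of 0.00 (SE 0.16, adjusted p = 1.00 in limma). An exact permutation test over 3 against 3 libraries cannot go below 0.1, which Ces2a reached for AF against PF.

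Ces2e, a relative in the same cluster and likewise a hydrolase of ester drugs and lipids, was not called in either comparison. It stood at 38.27, 44.63 and 45.21 FPKM in PF, at 42.63, 33.01 and 38.90 in AF, then at 45.95, 51.07 and 44.94 in AF with MNA. AF overlapped PF, with a log2 FC of -0.16 (SE 0.15, unadjusted p = 0.318 in limma). Each MNA library lay above each AF library, with a log2 FC of 0.31 (SE 0.14, unadjusted p = 0.0717 in limma). In limma that unadjusted p was 0.0498 with all 9 libraries and 0.0499 without AF replicate 1. The ratio of Ces2a to Ces2e within a library was 0.784 to 0.990 in PF, 2.42 to 2.62 in AF and 1.89 to 2.37 in AF with MNA. Ces2a was thus above Ces2e within each alcohol-fed library. Within each PF library it was below Ces2e, though the PF ranges of the pair overlapped.

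The merged Ces3 entry holds Ces3a and Ces3b, liver carboxylesterases of which less is known. It stood at 189.82, 198.40 and 199.00 FPKM in PF, with an SD of 5.14, and at 69.47, 92.30 and 83.46 in AF. The highest AF library was below 0.5 of the lowest PF library. The log2 FC was -1.26 (SE 0.15, unadjusted p = 0.000107, adjusted p = 0.0363 in limma), the 36th lowest p of all entries. The unadjusted p was under 0.05 in each of 15 other settings, and the adjusted p was under 0.05 in 5 of them and ranged from 0.0267 to 0.291. Leaving out AF replicate 2 kept it at 0.0450, and leaving out any other PF or AF library moved it to between 0.101 and 0.142 (limma adjusted p). How the fall was shared between Ces3a and Ces3b cannot be read from a merged entry.

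With MNA the merged Ces3 entry stood at 72.02, 153.28 and 141.41 FPKM. Replicate 1 lay within the AF range, and replicates 2 and 3 lay between AF and PF. The log2 FC against AF was 0.58 (SE 0.31, unadjusted p = 0.144, adjusted p = 0.966 in limma), and without AF with MNA replicate 1 it was 0.85 (unadjusted p = 0.00419, adjusted p = 0.488 in limma). Replicate 1 was the MNA library with the most intron signal, and its part in the level of the entry was not tested. The mean with MNA was 0.624 times that of PF, with no overlap between the libraries of those groups, a pair that was not tested.

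**Figure D2:**
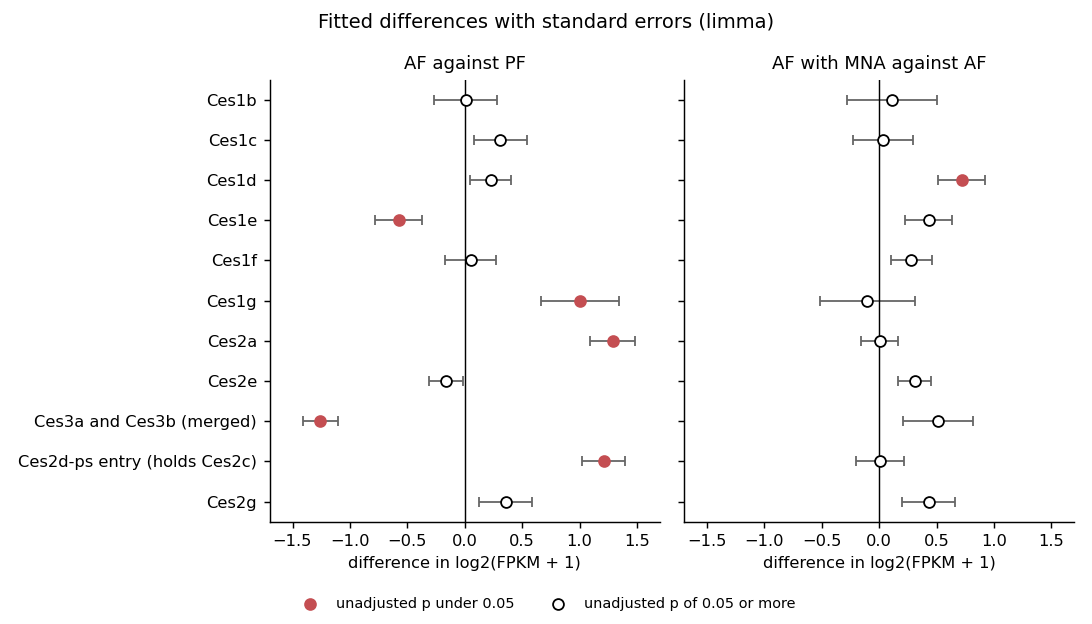
Difference in log2(FPKM + 1) from limma with its standard error (whiskers) for the 9 carboxylesterase entries and 2 family entries that are not members, for AF against PF (left) and AF with MNA against AF (right). Filled points have an unadjusted p under 0.05: Ces1e, Ces1g, Ces2a, the merged Ces3 entry and the Ces2d-ps entry on the left, and Ces1d on the right.

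Set beside each other per length, the members covered a wide range of levels. In PF the order of the means was Ces1c, the merged Ces3 entry, Ces1d, Ces1f, Ces1g, Ces2e, Ces2a, Ces1e and Ces1b. The ranges of neighbours in this order were apart except for Ces1g with Ces2e and Ces2e with Ces2a. In AF the order was Ces1c, Ces1d, Ces1f, Ces2a, Ces1g, the merged Ces3 entry, Ces2e, Ces1e and Ces1b. The means of Ces1f, Ces2a, Ces1g and the merged Ces3 entry, between 81.7 and 97.7 FPKM, lay within the spread of their libraries. In AF with MNA Ces1d stood clear of all below it, at 2.36 times the mean of the merged Ces3 entry, and the 4 entries from the merged Ces3 entry through Ces1f and Ces2a to Ces1g overlapped with their neighbours.

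The summed level of the 9 entries was 1131 ± 68.0 FPKM in PF, 1294 ± 240 in AF and 1482 ± 201 in AF with MNA (mean ± SD, n = 3 each). AF replicate 2, at 1017 FPKM, was the lowest library and lay below each PF library, so that the AF range spanned that of PF. The Ces1 members made up 73.6% to 76.5% of the sum in PF and 79.2% to 84.8% in AF. The Ces2 members made up 6.22% to 8.12% in PF and 9.32% to 11.7% in AF. The merged Ces3 entry made up 16.5% to 18.3% in PF, 4.84% to 9.08% in AF, then 4.25%, 10.5% and 10.9% in the MNA replicates. The share of Ces1d was 11.7% to 14.8% in PF, 12.0% to 14.6% in AF and 17.7% to 21.5% in AF with MNA. The shares of the Ces1 members, the Ces2 members and the merged Ces3 entry did not overlap between PF and AF, and as parts of 1 sum they depend on each other. In summed FPKM the Ces1 members did overlap, at 798.79 to 919.74 in PF and 804.96 to 1214.78 in AF. The sum overlapped between PF and AF and between AF and AF with MNA, while each MNA library, at 1296 FPKM or more, lay above each PF library, at 1209 or less.

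**Figure D3:**
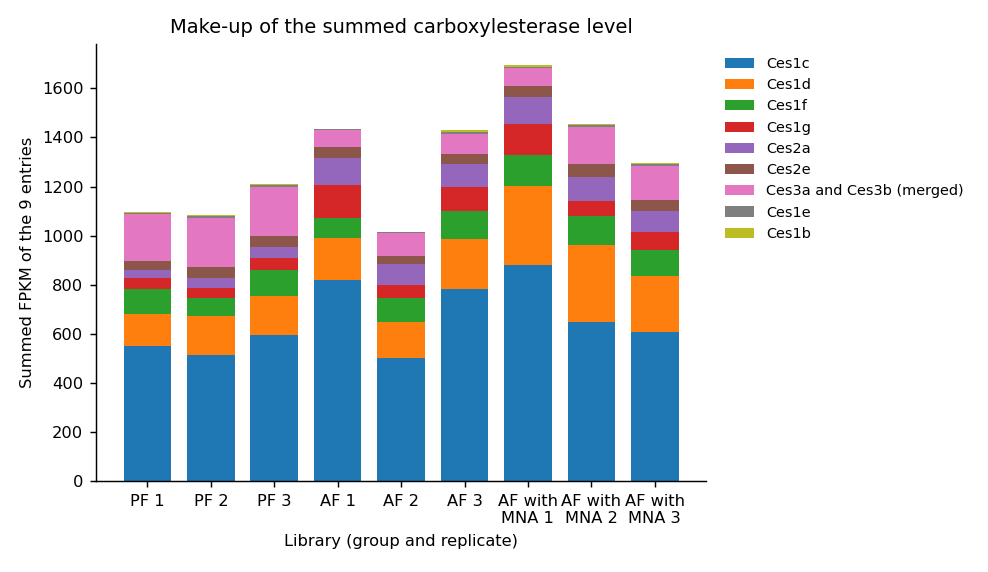
Summed FPKM of the 9 carboxylesterase entries in each library (vertical axis from 0), stacked by entry. Ces1c fills 44.5% to 57.1% of each bar, and the band of the merged Ces3 entry is 16.5% to 18.3% of the bar in PF and 4.84% to 9.08% in AF.

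Upstream sequence is shown for Ces2a, Ces2e and Ces3b, the relatives of 1 cluster that parted under the alcohol diet and a gene of the entry that fell. Bases 250 to 3 before the RefSeq start (GRCm38.p6, plus strand, from 5′ to 3′) are given, with motif matches in capitals:
Ces2a (chr8:104733753-104734000): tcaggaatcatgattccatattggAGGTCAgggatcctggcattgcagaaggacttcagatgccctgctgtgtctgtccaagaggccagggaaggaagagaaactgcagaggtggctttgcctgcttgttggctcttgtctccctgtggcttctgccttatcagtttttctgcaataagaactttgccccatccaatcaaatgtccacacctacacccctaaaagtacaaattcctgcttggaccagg
Ces2e (chr8:104926010-104926257): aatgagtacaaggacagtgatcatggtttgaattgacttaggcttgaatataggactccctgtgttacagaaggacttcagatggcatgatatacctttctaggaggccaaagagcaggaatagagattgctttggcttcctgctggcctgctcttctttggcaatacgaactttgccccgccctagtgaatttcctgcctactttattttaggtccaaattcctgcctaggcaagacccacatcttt
Ces3b (chr8:105083505-105083752): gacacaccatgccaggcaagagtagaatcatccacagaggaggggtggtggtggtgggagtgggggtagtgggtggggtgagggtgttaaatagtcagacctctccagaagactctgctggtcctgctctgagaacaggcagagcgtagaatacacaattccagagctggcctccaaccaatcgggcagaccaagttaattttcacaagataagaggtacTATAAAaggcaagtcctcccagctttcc
The Ces2a and Ces2e windows were 69.6% identical over 214 aligned bases. Both strands were searched for TATAAA (the TATA box), AGGTCA and AGTTCA (nuclear receptor half-sites), TTCNNNGAA (bound by STAT factors), CAAAGTCCA (bound by HNF4) and TGACNNNGC (the core of the antioxidant response element). Ces2a held AGGTCA at -226, which 14.0% of 32535 promoter windows of the same length hold. Ces3b held TATAAA at -30, found in 12.3% of them, and Ces2e held none of the 6 motifs. Of the windows searched but not printed, Ces1g held TATAAA on the reverse strand and Ces1b held AGTTCA. Those of Ces1c, Ces1e and Ces2c held none of the 6, and Ces2c is a family gene whose merged entry was also higher in AF. AGTTCA, TTCNNNGAA, CAAAGTCCA and TGACNNNGC were in 11.7%, 7.00%, 0.387% and 10.1% of all windows. These matches are letters in a window and say nothing of a factor. RefSeq promoters were matched for 7 of the 10 members, all but Ces1d, Ces1f and Ces3a.

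Of the 10 family genes that are not members, 2 had a tested entry. The entry named Ces2d-ps, which merges Ces2c, a triacylglycerol hydrolase, with a pseudogene, stood at 5.99, 9.78 and 8.96 FPKM in PF, 21.22, 18.68 and 20.15 in AF, then 14.90, 26.24 and 20.53 in AF with MNA. AF lay above PF throughout, with a log2 FC of 1.28 (SE 0.19, unadjusted p = 0.000459, adjusted p = 0.0828 in limma) beside 1.29 for Ces2a, which lies upstream of it in the cluster. Against AF the log2 FC with MNA was 0.04 (SE 0.21). Ces2g was at 7.98 to 8.89 FPKM in PF, 8.84 to 16.28 in AF and 14.29 to 16.68 in AF with MNA, and overlapped between AF and either other group (log2 FC 0.44, unadjusted p = 0.169 in limma, and 0.41, unadjusted p = 0.111). Ces4a was under the filter on low values, at 0.73, 1.21 and 0.68 FPKM in PF and 0.03 to 0.14 in AF, with 0.01, 0.23 and 0.44 in AF with MNA. Ces2h was at 0.16 to 0.21 in PF and 0.04 to 0.06 in AF. Ces1a, Ces1h, Ces2b and Ces5a did not exceed 0.17 FPKM in any library, and Ces2c and Ces2f had no entry of their own name.

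Gm45724 is a single-exon lncRNA of 420 bases annotated on the strand opposite to Ces3a, at chr8:105051049-105051468 (GRCm38), 2448 bases from the Ces3a start and, apart from 1 base, inside introns of it. Its FPKM was 30.9, 22.6 and 12.0 in PF, 1.04, 1.16 and 6.13 in AF, then 3.27, 15.5 and 12.8 in AF with MNA. As for the merged Ces3 entry, PF lay above AF in each library and AF with MNA replicate 1 was the lowest of its group. The log2 FC was -2.98 for AF against PF (unadjusted p = 0.000229, adjusted p = 0.280 in limma) and 1.93 for AF with MNA against AF (unadjusted p = 0.0141, adjusted p = 0.591). Among the lncRNA transcripts tested, 2.47% passed the threshold in the first comparison and 1.75% in the second. Without AF replicate 3, the AF library with the most intron signal, whose part here was not tested, the log2 FC was -4.31 in the first comparison and 3.26 in the second. Without AF replicate 1 the first was -2.59. The second call was lost in limma without AF replicate 1 (log2 FC 1.53, unadjusted p = 0.0551), AF replicate 2 (1.56, unadjusted p = 0.0623) or AF with MNA replicate 2 (1.54, unadjusted p = 0.0539). The libraries were strand-specific but the use of strand in the counting is not stated, and without it reads of Gm45724 and of unspliced Ces3a cannot be told apart. The other lncRNA overlapping a Ces gene, Gm45463 opposite Ces1a, was at or near 0.

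Back-splice junction reads of Ces genes were few, at 4 to 20 of the 1588 to 2545 such reads in a library. The most frequent circRNA held 5 exons of Ces1c (chr8:93100654-93108573 as the circRNA table gives it, minus strand), with 3, 4 and 4 reads in PF, 9, 2 and 6 in AF, then 12, 4 and 6 in AF with MNA. Another of Ces1c had 3, 0 and 0 reads in PF, 2, 3 and 6 in AF, as against 3, 3 and 0 in AF with MNA. A circRNA of Ces2e had 5 reads, all in AF with MNA replicate 1, and 3 more had 2 reads or fewer. These counts were not scaled to the junction reads of each library, and no test was made of them.

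Among 20 other esterases and lipases of liver, 16 were tested. For AF against PF, 3 of 16 reached an unadjusted p under 0.05 in limma, 1 higher and 2 lower, against 11.7% of all entries, and 0 of 16 passed the threshold or the adjustment. Aadac, a hydrolase of the endoplasmic reticulum that also acts on drugs and triacylglycerol, was the most abundant, at 247.01, 245.95 and 257.75 FPKM in PF, 160.30, 131.27 and 151.11 in AF, then 170.18, 179.51 and 181.81 in AF with MNA. Aadac was lower in each AF library than in PF (log2 FC -0.76, SE 0.14, unadjusted p = 0.00128, adjusted p = 0.117 in limma), and the MNA libraries lay between. Pnpla2, the adipose triglyceride lipase that opens the breakdown of stored fat, was at 17.65 to 23.68 FPKM in PF and higher in each AF library, at 31.62 to 40.11 (log2 FC 0.76, SE 0.16, unadjusted p = 0.00296, adjusted p = 0.161 in limma). Lipe, the hormone-sensitive lipase, was lower by a log2 FC of -0.45 (SE 0.13, unadjusted p = 0.0364 in limma) at levels of 1.86 to 3.18 FPKM. With MNA against AF, 1 of 16 reached an unadjusted p under 0.05, against 5.22% of all entries, the monoacylglycerol hydrolase Abhd6 with a log2 FC of 0.52 (unadjusted p = 0.0369, adjusted p = 0.940 in limma). Pon1 and Lipa, a plasma and a lysosomal esterase, were next in abundance to Aadac at means of 127 and 47.6 FPKM and did not reach it in either comparison.

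Of 13 transcription factors known to act on carboxylesterase genes or on liver genes at large, 12 were tested and Nr1h3 had no entry of that name. For AF against PF 0 of 12 reached an unadjusted p under 0.05 in limma, against 11.7% of all entries. Nr1i3, the constitutive androstane receptor of drug response, was at 11.31 to 16.02 FPKM in PF at 14.18, 12.66 and 54.10 in AF, then at 25.79, 47.22 and 18.31 in AF with MNA. Each MNA library lay above each PF library, and AF overlapped with both. For AF with MNA against AF 3 of 12 reached it, against 5.22% of all entries. Ahr, the dioxin receptor, went from 5.29, 5.35 and 6.31 FPKM to 4.21, 3.84 and 3.73 (log2 FC -0.52, unadjusted p = 0.00997 in limma). Nr1h4, the bile acid receptor FXR, went from 5.58, 4.31 and 3.58 to 9.13, 8.34 and 5.07 (log2 FC 0.74, unadjusted p = 0.0391). Foxa2 went from 1.11, 0.93 and 1.15 to 2.42, 9.69 and 3.56 (log2 FC 2.30, unadjusted p = 0.0110), the 1 of 12 past the threshold, against 1.98% of all entries. Its mean with MNA was led by replicate 2. The PF libraries of Foxa2 stood at 3.31, 0.21 and 1.06 FPKM and overlapped with both other groups. Ahr, Nr1h4 and Foxa2 each had an adjusted p of 0.940 in limma. Cebpa, Hnf4a and Rxra, the most abundant of the list at means of 79.2, 52.7 and 25.2 FPKM, did not reach an unadjusted p under 0.05 in either comparison.

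By Pearson correlation of log2(FPKM + 1) over the 9 libraries and 12518 entries, the 5 entries most like Ces2a were Aldh5a1 (r 0.978), Gm7208 (0.977), Gstm4 (0.975), Cyp2a5 (0.973) and Fam208b (0.972). Gstm4 and Cyp2a5, a glutathione transferase and a cytochrome P450, lay further above their PF level than Ces2a did, Cyp2a5 going from 152.52 to 189.15 FPKM in PF to 1298.10 to 1414.04 in AF. Among the 5 most like the merged Ces3 entry were Slco1a1 (r 0.975), Elovl3 (0.974), Alas2 (0.974) and Scp2 (0.973). Slco1a1, an organic anion transporter, stood at 34.81, 53.91 and 47.67 FPKM in PF, 5.54, 16.92 and 10.63 in AF, then 8.38, 27.24 and 26.56 in AF with MNA. In all 4, AF with MNA replicate 1 lay below the other MNA libraries, as it did for the merged Ces3 entry. These correlations describe libraries that share diets and, being picked as the highest of many, carry no test.

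**Figure D4:**
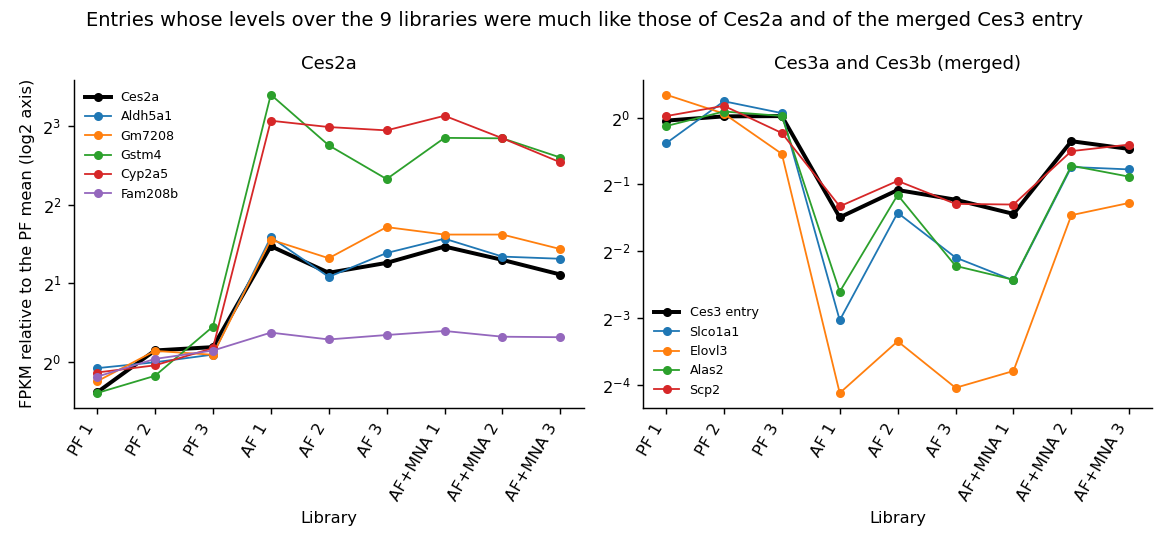
FPKM relative to the PF mean (vertical axes on a log2 scale) in each of the 9 libraries for Ces2a (left) and the merged Ces3 entry (right), drawn in black, with 5 and 4 of the entries of highest correlation to them (r of 0.972 to 0.978). On the right, AF with MNA replicate 1 stays at the AF level and replicates 2 and 3 lie between AF and PF.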

How the data were processed

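The authors deposited FPKM values of gene entries (rounded to 2 decimals) and of lncRNA transcripts, made with StringTie from transcripts merged across libraries. Per the submitters' processing notes, cutadapt 1.9, HISAT2, StringTie 1.3.4, edgeR and TopHat were used. The genome build and circRNA caller are not given in the sources used here. The deposited lncRNA coverage, a signal not scaled for depth, gave the coverage behind 1 FPKM. The CPC and CNCI score columns were made by the authors and not used here. For circRNAs the authors deposited junction counts without normalization and also a normalized signal, and only the counts are given here.

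Of 52151 entries, 26345 with a known transcript and gene name were used. log2(FPKM + 1) was tested with limma 3.58.1 (lmFit, eBayes with an intensity trend, R 4.3.3, two-sided) over entries with a mean of at least 0.5 FPKM (lncRNA transcripts: 0.1) in the 6 libraries compared, with Benjamini-Hochberg adjustment. No counts are given for genes, so precision comes from the spread between replicates. The script was tested on simulated data. Promoter and coding sequences came from RefSeq and GENCODE M21. Alternatives covered the pseudocount, scaling, filters, samples fitted, replicate block, covariate and left-out libraries. Named were all members, family genes, list genes with an unadjusted p under 0.05 or among the 3 most abundant, and the 5 most alike entries, of which 1 is not reported here; Nr1i3 was added after its values were seen. The members and lists were chosen with earlier results of these data known.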

Additional observations from a re-analysis of the deposited data

Results flagged for a closer look

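The assembled-only entry named Ces1g, which stood outside the tests, was listed at 2.68 FPKM in AF replicate 3 and at 0 in the other 8 libraries. The assembled-only entry named Ces2a was listed at 1.77, 0.36 and 0.08 FPKM in AF with MNA replicates 1, 2 and 3 and at 0 in PF and AF. Both were looked at because a signal appeared in entries that no comparison used, while the PF libraries were at 0. AF replicate 3 and AF with MNA replicate 1, where the higher values of these 2 entries lay, also held the most intron signal, and its part in these values was not tested. The assembled-only entry named Ces3b was listed at 0.00, 0.00 and 1.45 FPKM in PF, 0.14, 0.19 and 0.00 in AF, then 0.28, 0.00 and 0.00 in AF with MNA.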

How the results depend on the processing

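With libraries left out in turn, members past the threshold numbered 2 to 3 for AF against PF and 0 to 0 for AF with MNA against AF, and members with an unadjusted p under 0.05 numbered 2 to 4 and 1 to 3. The latter was 3 with all 9 libraries in the fit (Ces1d, Ces1e and Ces2e), and 2 without AF replicate 1 or AF with MNA replicate 1 and 3 without AF replicate 3. AF against PF gave 2 without PF replicate 2 or AF replicate 1, which left Ces2a and the merged Ces3 entry. With a replicate block the counts past the threshold were 3 and 0 and no call of a member at the unadjusted threshold changed, but the adjusted p of the merged Ces3 entry became 0.164. Samples of the same number correlated at -0.04 to 0.06, so the numbers were not taken as pairs. Differences near 0 changed sign with the left-out library. Their ranges were -0.34 to 0.30 for Ces1b and -0.11 to 0.18 for Ces1f in AF against PF, and -0.17 to 0.15 for Ces1c, -0.42 to 0.60 for Ces1b, -0.52 to 0.21 for Ces1g and -0.088 to 0.10 for Ces2a in AF with MNA against AF, and scaling to the same median gave -0.0097 for Ces2a. Of all entries, 527 and 242 passed the threshold in the first and second comparison. They were 1183 and 675 with any value above 0, 265 and 81 at a minimum of 2 FPKM, 249 and 99 with limma's coefficient as fold change, and 335 and 106 with the covariate model, and the second was 367 without AF replicate 3. With merged entries left out, 2 members passed, since the Ces3 entry was not tested. The cause of these shifts was not tested otherwise. Entries under about 1 FPKM rest on a coverage of few reads per base.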
